A study of Mus musculus with 1753 samples.

Results

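ADAMTS proteases are secreted zinc metalloproteinases of the extracellular matrix, and 10 of them are described here in single cells sorted from mouse skeletal muscle. The members were Adamts1, Adamts2, Adamts4, Adamts5, Adamts8, Adamts9, Adamts10, Adamts12, Adamts15 and Adamts16, taken as the genes of the count table whose Ensembl identifiers carry these symbols, 10 of 46517 genes in the table. All 10 were found, each under 1 identifier.

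An ADAMTS protease carries a metalloproteinase domain with a bound zinc ion, followed by a disintegrin-like domain and thrombospondin type 1 repeats, and it is made as an inactive precursor from which a proprotein convertase removes the prodomain. Adamts1, Adamts4, Adamts5, Adamts8, Adamts9 and Adamts15 belong to the proteoglycanase branch, which cuts versican, aggrecan and related hyaluronan-binding proteoglycans. Adamts2 removes the amino-terminal propeptide of fibrillar procollagens, Adamts10 binds fibrillin microfibrils, Adamts12 can cut cartilage oligomeric matrix protein (Comp), and Adamts16 can cut fibronectin.

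The series held 1753 cells of adult male mice aged 10 to 20 weeks, each cell sequenced as its own full-length Smart-seq2 library. CD31-negative cells were sorted, by antibody to PDGFR alpha or beta in C57BL6 mice (373 cells) or by the fluorescent reporter in mice labelled Acta2GFP (157 cells), Cspg4dsRED (181 cells), PdgfrbGFP (630 cells) and PdgfraGFP - PdgfrbGFP pool (412 cells, called the pool below). All lines were kept on a C57Bl6/J background, a reporter selects cells by the promoter of its gene, and elastase was added only when Acta2GFP muscle was dissociated. The submitters assigned each cell to 1 of 10 clusters, which the study names endomysial fibroblasts (clusters 1, 3, 5, 6 and 8), perimysial fibroblasts (clusters 2 and 9), paramysial fibroblasts (cluster 4) and mural cells, the pericytes and smooth muscle cells of vessels (cluster 7). Cluster 10 was described by the study as a further fibroblast subtype with Cspg4, Pdgfra and Ngfr, found beside nerves, and is counted among the fibroblasts here. The clusters were made from these same counts, so a difference between clusters describes the clustering and is not independent of it.

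The labels name no animal, so the strain label was taken as the replicate, and whether the pool and PdgfrbGFP cells came from separate mice is not given in the sources used here. P-values therefore measure how much the difference between groups within a label varies from label to label. The labels differ in genotype, sort and dissociation at once. Cells held 46097 to 1055869 counts with a median of 258251, and the median by strain label ran from 121646 in Cspg4dsRED to 367563 in the pool. The summed fibroblast markers (Pdgfra, Lum, Cd34, Col1a1 and Dcn) reached 7454 to 10220 scaled counts in fibroblasts and 110.7 to 623.7 in mural cells, and the mural markers (Myh11, Notch3, Mcam, Rgs5, Kcnj8 and Abcc9) 15.3 to 59.9 and 3029 to 6523. Fibroblasts and mural cells thus carried their defining markers. Of the 5 fibroblast markers, 3 were lower and 1 higher in perimysial than in endomysial cells (edgeR, adjusted p under 0.05). Pdgfra was 13.8 scaled counts in perimysial and 352 in endomysial cells. The summed perimysial markers (Tnmd, Scx, Thbs4, Thbs1 and Col11a1) reached 5890 to 9526 in perimysial and 128.8 to 659.6 in endomysial cells. The paramysial markers (Postn, C1qtnf3 and Cthrc1) overlapped, with 1699 to 3367 in paramysial and 221.1 to 1923 in perimysial cells. The summed immune markers stayed under 17 scaled counts in every class and strain label other than the C57BL6 mural cells, where they reached 428.

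The zinc-binding site of the members is shown first, as a short stretch of the catalytic domain that every member carries and that can be compared base by base. Each line gives the coding bases of the zinc-binding site, 33 bases or 11 codons, with the 3 histidine codons that hold the zinc ion in capitals. The sequences were read 5′ to 3′ on the coding strand from GENCODE M21 transcripts on GRCm38, and the coordinates span the intron that each site crosses.
Adamts1 (chr16:85799191-85799545, minus strand): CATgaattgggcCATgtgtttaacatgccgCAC
Adamts4 (chr1:171253210-171253915, plus strand): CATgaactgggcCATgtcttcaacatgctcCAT
Adamts15 (chr9:30911255-30911690, minus strand): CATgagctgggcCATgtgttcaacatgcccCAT
Adamts8 (chr9:30952721-30953378, plus strand): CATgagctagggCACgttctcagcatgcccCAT
Adamts5 (chr16:85878015-85887826, minus strand): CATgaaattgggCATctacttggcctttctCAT
Adamts9 (chr6:92905285-92908493, minus strand): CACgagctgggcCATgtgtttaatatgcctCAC
Adamts2 (chr11:50775403-50776134, plus strand): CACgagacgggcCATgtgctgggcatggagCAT
Adamts10 (chr17:33538157-33538279, plus strand): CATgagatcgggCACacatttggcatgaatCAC
Adamts12 (chr15:11241529-11255564, plus strand): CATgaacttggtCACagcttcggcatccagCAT
Adamts16 (chr13:70787149-70791812, minus strand): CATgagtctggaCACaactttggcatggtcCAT

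Each member held 1 such site, and 12 of the 33 positions carried the same base in all 10. The sites were found by a pattern that fixes the 3 histidines and the glutamate after the first. Part of the shared bases was thus set by the search. The sites of Adamts4 and Adamts15 were the most alike, with 30 of 33 bases shared (90.9%), and those of Adamts9 with Adamts12 and Adamts9 with Adamts16 the least, with 17 of 33 (51.5%). The eighth codon of the site encoded asparagine in Adamts1, Adamts4, Adamts9 and Adamts15, serine in Adamts8 and glycine in the other 5. In all 10 genes the site was split by an exon junction, which fell after base 10 in Adamts1, Adamts4, Adamts5, Adamts8 and Adamts15 and after base 17 in Adamts2, Adamts9, Adamts10, Adamts12 and Adamts16. The first of these groups holds 5 of the 6 proteoglycanase members, and Adamts9 is the one in the other group. Adamts1 and Adamts5 lie on the same strand of chromosome 16 with 53.1 kb between them, and Adamts15 and Adamts8 lie 20.1 kb apart on opposite strands of chromosome 9.

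Levels are given as scaled counts, meaning that the gene counts of a cell, without the spike-ins, were scaled to a sum of 500000 and averaged over the cells of a cluster or class in each strain label with 3 or more cells there. The mean ± SD then runs over strain labels. Per kb of exon, the fibroblast level was highest for Adamts2 (21.98 scaled counts per kb), followed by Adamts5 (14.5), Adamts1 (10.4) and Adamts10 (4.83), and the other 6 members lay between 0.257 and 1.53. The mural order was different, with Adamts1 first (18.9 scaled counts per kb), followed by Adamts5 (3.80) and Adamts8 (3.21), while Adamts2 ranked 6 of 10 (1.75). A cell carried counts of a median of 2 to 5 members, depending on the cluster, and the highest median was in cluster 4, whose cells were also the deepest (median 595321 counts).

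**Figure D1:**
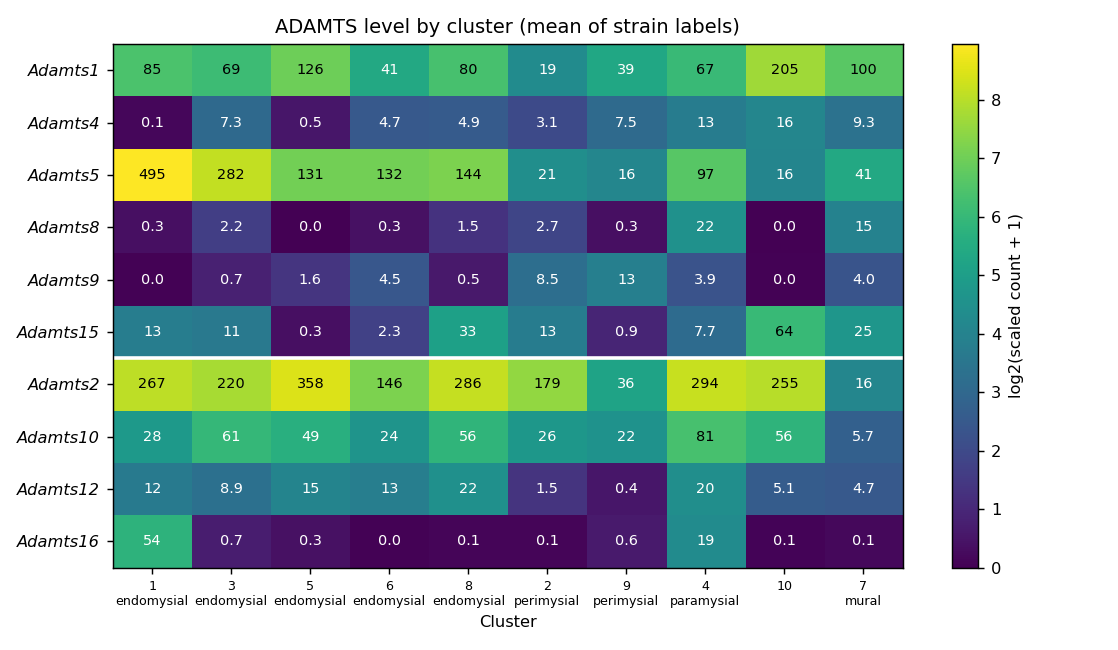
Mean scaled counts (of 500000 per cell) of the 10 members by cluster, as the mean over strain labels with 3 or more cells. Colour is log2 of the value plus 1, and the value itself is printed in each square. Adamts5 peaks in cluster 1 (495), Adamts2 is low in clusters 7 and 9 (16.4 and 35.8), and Adamts16 is near 0 outside clusters 1 and 4.

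As a share of the summed length-scaled level of the 10 members, Adamts5 led in clusters 1 (44.0%) and 3 (35.2%). Adamts2 led in cluster 2 (61.8%), in clusters 4, 5, 6 and 8 (37.9% to 46.8%), and Adamts1 led in the mural cells of cluster 7 (56.5%), in cluster 9 (40.8%) and in cluster 10 (45.9%). In clusters 9 and 10 the lead of Adamts1 rested on 1 label each. Without C57BL6, Adamts2 led in cluster 9 (37.7%, with Adamts1 at 18.8%), where 1 cell also carried 45.1% of the Adamts1 signal. Without PdgfrbGFP (8 cells), Adamts2 led in cluster 10 (49.7%, with Adamts1 at 29.2%). In the other 8 clusters the same member led with any 1 label left out. The family member that made up the most of the RNA of this set thus differed between the classes and also between clusters of 1 class.

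**Figure D2:**
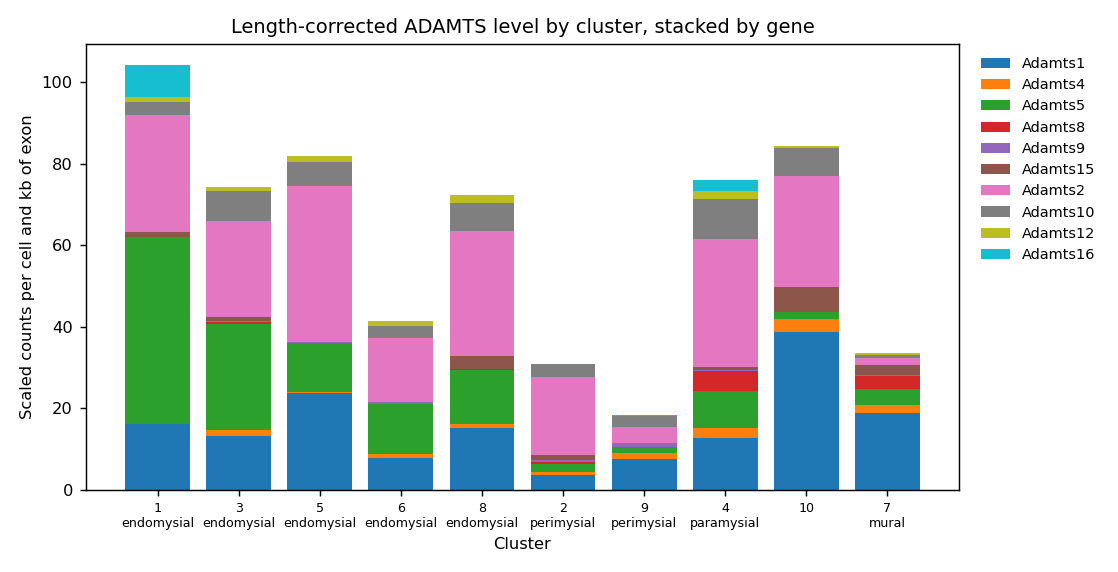
Scaled counts per kb of exon of the 10 members by cluster, as stacked bars whose height is the summed level. Of that height, Adamts5 takes 44.0% in cluster 1, Adamts2 61.8% in cluster 2 and Adamts1 56.5% in the mural cells of cluster 7.

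Adamts5, also called aggrecanase-2, had its highest levels in the endomysial clusters 1 and 3. Its level was 495 ± 66.8 scaled counts in cluster 1 and 282 ± 52.0 in cluster 3 (SD, n = 4 strain labels each), against 20.7 ± 7.9 in cluster 2 (n = 5) and 16.3 ± 20.6 in cluster 9 (n = 4). In cluster 1 the strain labels read 461 in Acta2GFP, 422 in C57BL6, 574 in PdgfrbGFP and 522 in the pool, and in cluster 3, in the same order, 263, 332, 316 and 218. The cluster 1 values lay above the cluster 3 values in all 4, with no overlap, and cluster 3 lay above cluster 8 (186, 218, 124 and 45.6) in all 4, although the ranges touched. Clusters 8, 6, 5 and 4 followed at 144 ± 76.1, 132 ± 50.7, 131 ± 33.4 and 97.4 ± 47.3 scaled counts, and their ranges overlapped. At least 1 count was found in 99.4% of the cells of cluster 1, in 68.0% of cluster 2 and in 58.3% of the mural cells, and after every cell was thinned to 50000 counts the shares were 97.5%, 28.7% and 43.3%.

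Adamts1, a proteoglycanase also known to restrain vessel growth, was found in all clusters and varied widely between strain labels. Its mean ran from 19.2 ± 19.1 scaled counts in cluster 2 to 205 ± 216 in cluster 10, and every neighbouring pair in the order of the clusters overlapped. In cluster 10 the level was 72.04 scaled counts in Cspg4dsRED, 455 in PdgfrbGFP and 88.0 in the pool, so 1 label set the mean. In the mural cells it was 63.2 in Acta2GFP, 254 in C57BL6, 10.2 in Cspg4dsRED, 46.0 in PdgfrbGFP and 128 in the pool. The C57BL6 value came from 9 cells of 2 plates, with 424 scaled counts on one plate (5 cells) and 41.1 on the other (4 cells), and these were the mural cells with immune markers at 428 scaled counts, whose part in the level was not tested. Adamts1 is an early response gene in many cells, and the summed immediate early and dissociation genes were also highest in cluster 10 (25500 scaled counts in Cspg4dsRED, 18860 in PdgfrbGFP and 8556 in the pool, against 2314 to 9093 elsewhere). The part of that response in the level of Adamts1 was not tested.

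Adamts15, a versican-cutting proteoglycanase, was highest in cluster 10 (64.4 ± 44.4 scaled counts, n = 3), in cluster 8 (33.1 ± 20.9, n = 4) and in the mural cells (25.2 ± 7.2, n = 5). Across the mural cells it read 31.4 in Acta2GFP, 31.0 in C57BL6, 18.6 in Cspg4dsRED, 16.2 in PdgfrbGFP and 28.6 in the pool. In cluster 10 it read 55.9 in Cspg4dsRED, 112 in PdgfrbGFP and 24.9 in the pool, all above the endomysial values of the same labels (0.669, 14.2 and 9.37). Cluster 5 held almost none (0.3 scaled counts). At most 30.8% of the cells of a cluster carried a count, so these means rest on a minority of cells.

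Adamts4, Adamts8 and Adamts9, the other members of the proteoglycanase branch, were low throughout. Adamts4, or aggrecanase-1, had its highest means in cluster 10 (16.1 ± 13.4 scaled counts, n = 3), cluster 4 (12.6 ± 11.9, n = 4) and mural cells (9.34 ± 9.91, n = 5), with SDs near the means. It read 13.4 scaled counts in Acta2GFP, 4.90 in C57BL6, 10.8 in PdgfrbGFP and 0.227 in the pool in cluster 3, and between 0 and 0.420 in cluster 1 in the same 4 labels. Adamts9 was highest in the perimysial clusters 9 (13.5 ± 6.1, n = 4) and 2 (8.5 ± 6.7, n = 5) and at most 4.5 elsewhere. In cluster 9 it read 8.00 in Acta2GFP, 21.2 in C57BL6, 15.4 in PdgfrbGFP and 9.18 in the pool, each above the same label in cluster 3 (0.258 to 1.41). Cspg4dsRED went the other way, with 0 in cluster 2 and 8.92 in the endomysial cluster 6.

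Adamts8 depended on few cells. It was 14.8 ± 16.7 scaled counts in mural cells, with 7.75 in Acta2GFP, 0 in C57BL6, 1.32 in Cspg4dsRED, 28.0 in PdgfrbGFP and 36.9 in the pool. In cluster 4 Acta2GFP read 77.3 and the pool 10.3, while C57BL6 and PdgfrbGFP were at 0, and in cluster 2 a single cell carried 99.5% of the signal. Exons of another gene on the opposite strand cover 10.6% of the exonic bases of Adamts8, 12.0% of Adamts9 and 3.56% of Adamts4, and whether the counting used strand is not stated, so reads there cannot be told apart.

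Adamts2, the procollagen N-propeptidase, was a fibroblast gene with a low point inside the perimysium. Fibroblasts read 142 scaled counts in Acta2GFP, 189 in C57BL6, 196 in Cspg4dsRED, 245 in PdgfrbGFP and 254 in the pool, and mural cells 16.4, 14.0, 23.9, 10.4 and 17.0 in the same order. The groups did not overlap. The cluster means were highest in cluster 5 (358 ± 107), cluster 4 (294 ± 37.8) and cluster 8 (286 ± 93.6), which overlapped one another. Between the perimysial clusters, cluster 2 read 82.2 in Acta2GFP, 143 in C57BL6, 216 in PdgfrbGFP and 251 in the pool, and cluster 9 read 31.99, 15.6, 52.9 and 42.8. Cluster 9 was thus the lower in 4 of 4 labels with no overlap, a difference that was noticed in the values and is given without a test. A count of Adamts2 was found in 72.9% of the cells of cluster 9 (39.0% after thinning), in 59.9% of mural cells (29.4%) and in 100% of cluster 4 (96.7%).

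Adamts10, the fibrillin-binding member, had its highest means in cluster 4 (81.3 ± 67.3 scaled counts, n = 4) and cluster 3 (61.2 scaled counts) and its lowest in mural cells (5.7 ± 6.8, n = 5). The cluster 4 mean rested on C57BL6 (169 scaled counts, 3 cells) and was 51.9 ± 40.4 without it, and 1 cell carried 39.2% of the signal of that cluster. Fibroblasts read 47.2 in Acta2GFP, 34.6 in C57BL6, 4.05 in Cspg4dsRED, 60.3 in PdgfrbGFP and 53.1 in the pool, and mural cells 17.3, 2.74, 0.547, 6.47 and 1.62. Each label had less in its mural cells, yet the ranges overlapped because Cspg4dsRED was low in both. Adamts12, the Comp-cutting member, was highest in cluster 8 (21.8 ± 5.5, n = 4) and cluster 4 (20.3 ± 9.3, n = 4) and lowest in cluster 2 (1.5 ± 1.8, n = 5) and cluster 9 (0.4 ± 0.7, n = 4). In cluster 8 it read 14.3 in Acta2GFP, 21.7 in C57BL6, 26.8 in PdgfrbGFP and 24.5 in the pool, all above the highest value in clusters 2 and 9 (4.54).

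Adamts16 was found mainly in a minority of the cells of cluster 1. In cluster 1 its level was 0 in Acta2GFP (6 cells), 66.9 in C57BL6, 78.0 in PdgfrbGFP and 71.5 in the pool. In cluster 4 it was 7.25 in Acta2GFP, 67.3 in C57BL6 (3 cells), 0 in PdgfrbGFP and 1.19 in the pool, and in each of the other 8 clusters the mean was at most 0.7. Of the 161 cells of cluster 1, 58 carried a count (36.0%, exact 95% binomial interval 28.6 to 44.0%, counting error only), and 52 still did after thinning (32.3%). In the other clusters 2.14% to 8.33% of cells carried a count and 0% to 5.00% after thinning. The mural cells, at 2.14% with a median depth of 156959 counts against 334153 in cluster 1, give the level in a cell type of another lineage. The cells of cluster 1 that carried Adamts16 had a median of 106 scaled counts and a highest value of 980. Adamts5 averaged 641 scaled counts in these cells and 456 in the cells of cluster 1 without Adamts16, and Adamts2 averaged 333 and 248, as a description over cells that share their strain labels.

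**Figure D3:**
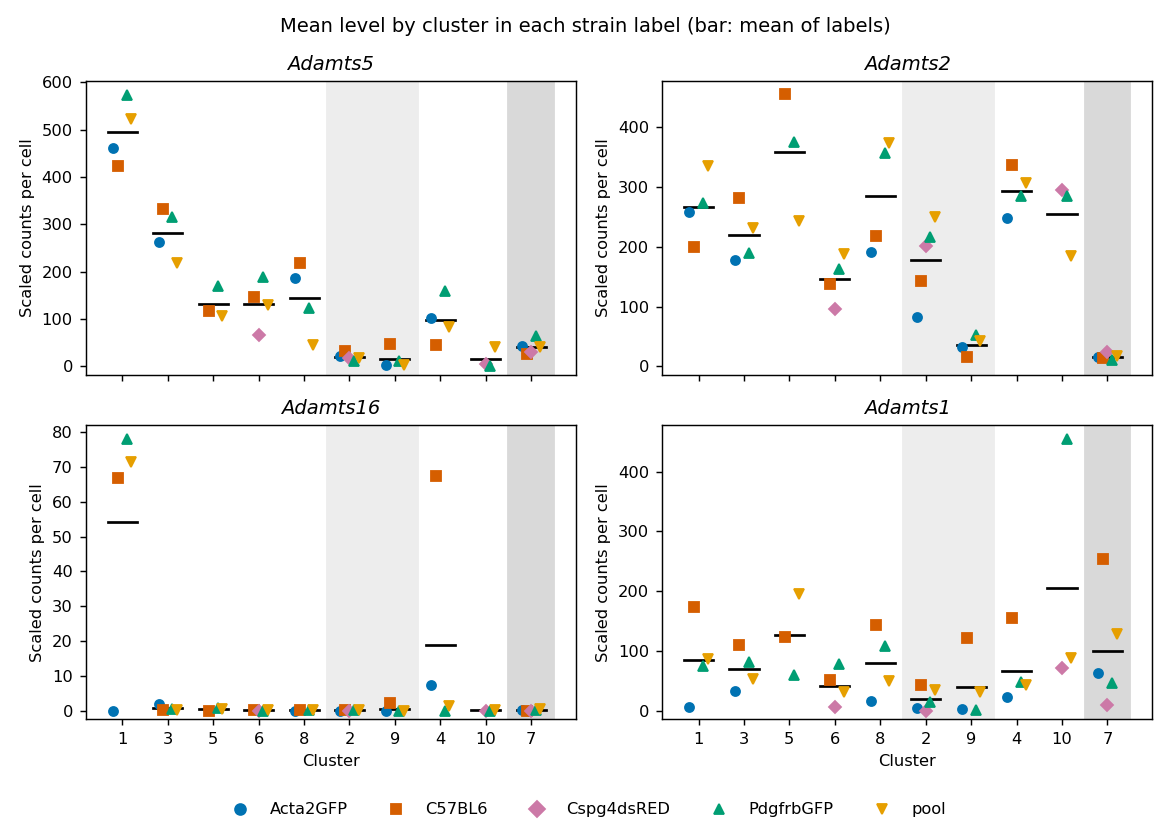
Scaled counts of Adamts5, Adamts2, Adamts16 and Adamts1 in each cluster, 1 point per strain label with 3 or more cells, and a horizontal bar at the mean of the labels. Light grey marks the perimysial clusters and dark grey the mural cluster. The Adamts5 points of cluster 1 lie between 422 and 574, the Adamts2 points of cluster 7 between 10.4 and 23.9, and the Acta2GFP point of Adamts16 in cluster 1 is at 0 while the other 3 lie between 66.9 and 78.0.

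The first comparison asked how mural cells differ from fibroblasts, the distinction that the study set out to draw. Adamts2, Adamts5 and Adamts10 were lower in mural cells and no member was higher. The raw counts of all cells of a class in a strain label were added up, and the sums were compared with edgeR's quasi-likelihood test with the label as a block. A call means an adjusted p (Benjamini-Hochberg, over all genes tested) under 0.05. Of the 9 members tested, 3 were called, against 15.4% of all 13880 genes called in either direction and 9.27% called lower. DESeq2 called the same 3, against 31.2% of genes. The log2 fold change was -3.49 for Adamts2 (adjusted p = 0.000234 by edgeR, paired difference -3.49 ± 0.21 SE, lower in 5 of 5 labels). It was -1.48 for Adamts5 (adjusted p = 0.0245 by edgeR, paired difference SE 0.37, 5 of 5 labels) and -3.15 for Adamts10 (adjusted p = 0.0177 by edgeR, paired difference SE 0.65, 5 of 5 labels). The median log2 fold change was 0.04 over the 9 members and -0.46 over all genes. Without PdgfrbGFP, or without the cells that lack Pdgfra and Pdgfrb or exceed 10% mitochondrial counts, only Adamts2 was called, and Adamts5 also lost its call without Acta2GFP or without the pool.

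Uncalled members in that comparison included Adamts12 (log2 fold change -2.90, adjusted p = 0.43 by edgeR) and Adamts1 (0.97, adjusted p = 0.49 by edgeR). Adamts16 was not tested because it fell under the filter on low counts, with 4 counts in all mural cells against 7563 in all fibroblasts. The fibrillar procollagens, the substrates of Adamts2, moved in the same direction as Adamts2. Of them 7 of 7 tested were called lower in mural cells, against 9.27% of all genes. Col1a1 is 1 of the fibroblast markers used here, and the study lists Col1a1, Col1a2 and Col5a1 among its common fibroblast markers. The calls of these genes thus follow from what names the classes and give no separate support. Among the procollagens, Col11a1 read 0.242 ± 0.370 scaled counts in mural cells and 44.9 ± 39.0 in fibroblasts (SD, n = 5).

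**Figure D4:**
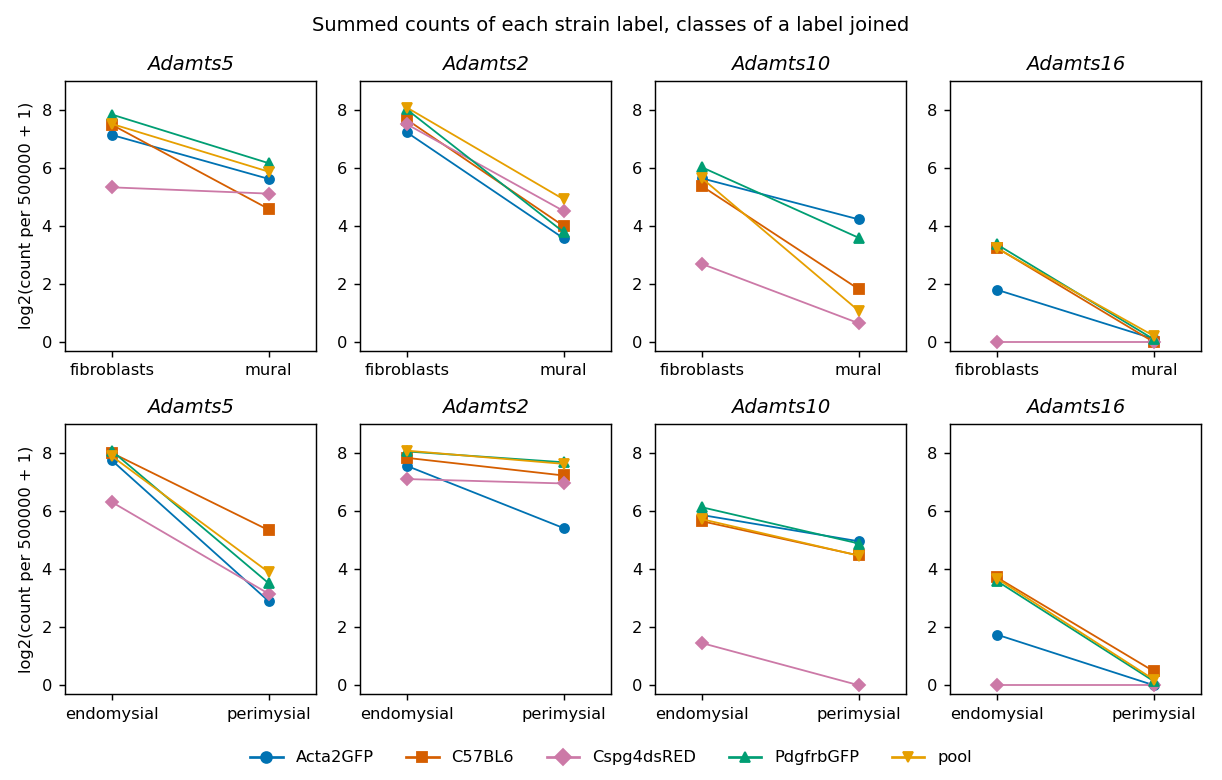
Summed counts per 500000, as log2 of the value plus 1, of Adamts5, Adamts2, Adamts10 and Adamts16 in fibroblasts and mural cells (top) and in endomysial and perimysial cells (bottom), with a line joining the values of each strain label. The line of Adamts2 goes down to mural cells in 5 of 5 labels and that of Adamts5 down to perimysial cells in 5 of 5.

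The second comparison set the fibroblasts of the perimysium, the sheath around muscle fascicles, against those of the endomysium around single fibres. Adamts5 and Adamts16 were lower in perimysial cells. The Adamts16 difference rested on cluster 1, which held 7085 of the 7252 endomysial counts. The endomysial clusters 3, 5, 6 and 8 read 0.65, 0.33, 0.05 and 0.08 scaled counts of Adamts16. The perimysial clusters 2 and 9 read 0.10 and 0.56, so Adamts16 did not set the endomysium as a whole apart. Endomysial cells read 262 scaled counts of Adamts5 in Acta2GFP, 257 in C57BL6, 67.8 in Cspg4dsRED, 269 in PdgfrbGFP and 238 in the pool, and perimysial cells 10.3, 34.2, 15.3, 12.2 and 14.3. The groups did not overlap, and Cspg4dsRED was the lowest endomysial value by far. Of its 51 endomysial cells, 46 were in cluster 6 (90.2%) and 1 in cluster 1, the cluster with the most Adamts5. Within cluster 6 alone Cspg4dsRED was still the lowest label (65.8 scaled counts, against 129 to 188 in the other 3), and the part of the cluster make-up in its endomysial value was not tested.

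Of the 9 members tested, 2 were called, against 5.57% of 14121 genes in either direction and 3.26% lower. DESeq2 called 5, with Adamts1, Adamts10 and Adamts12 added, against 14.6% of genes. The log2 fold change was -3.89 for Adamts5 (adjusted p = 0.0014 by edgeR, paired difference -3.88 ± 0.43 SE, lower in 5 of 5 labels) and -6.17 for Adamts16 (adjusted p = 0.0185 by edgeR, paired difference -4.79 ± 1.24 SE, lower in 4 labels and at 0 in both classes of Cspg4dsRED). Endomysial Adamts16 was 1.27 scaled counts in Acta2GFP, 9.97 in C57BL6, 11.3 in PdgfrbGFP and 12.7 in the pool, and perimysial Adamts16 was 0, 0.268, 0.138 and 0.184. Adamts1 (log2 fold change -2.28), Adamts10 (-1.35) and Adamts12 (-4.20) were lower in 5 of 5 labels with adjusted p of 0.147, 0.181 and 0.0763 by edgeR. Adamts9 was higher in 4 of 5 labels and was not called (log2 fold change 3.01, paired difference 1.64 ± 2.46 SE, adjusted p = 0.503 by edgeR). The reversed label of Adamts9 was Cspg4dsRED, with 0 scaled counts in perimysial and 8.04 in endomysial cells. PdgfrbGFP was higher through its smaller plate (20.4 in 35 perimysial and 1.34 in 202 endomysial cells). On its larger plate Adamts9 was lower in perimysial cells (0.352 in 52 cells, against 1.40 in 292 endomysial cells). Adamts8 was not tested (308 counts in perimysial and 499 in endomysial cells). Leaving out Acta2GFP, C57BL6, PdgfrbGFP or the pool each left 1 call, Adamts5, and leaving out the shallow Cspg4dsRED gave 3. The median was -1.35 over the 9 members and -0.19 over all genes.

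The third comparison set paramysial against endomysial cells, in the 4 labels with 3 or more paramysial cells (6 in Acta2GFP, 3 in C57BL6, 4 in PdgfrbGFP and 46 in the pool). Of the 46 in the pool, 45 were on its soleus plate, while 194 of its 302 endomysial cells were on its gastrocnemius plate. The study also captured paramysial cells more abundantly from soleus. The part of muscle and plate in the differences was not tested. No member was called by edgeR among 10 tested, where 0.0963% of 14533 genes were called. At an unadjusted p under 0.05 there was 1 member, Adamts5, and DESeq2 called 0 (5.42% of genes). Paramysial Adamts5 was 101 scaled counts in Acta2GFP, 45.6 in C57BL6, 159 in PdgfrbGFP and 83.6 in the pool. These values lay below the endomysial ones in all 4 labels without overlap (log2 fold change -1.30, paired difference -1.34 ± 0.64 SE, adjusted p = 0.52 by edgeR). Adamts2 was higher in 4 of 4 labels, also without overlap (log2 fold change 0.49, adjusted p = 0.73 by edgeR), and Adamts12 was higher in 4 of 4 labels with overlap (0.55, adjusted p = 0.91 by edgeR). The median log2 fold change of all genes here was -0.86, so relative to it the Adamts5 difference was smaller and those of Adamts2 and Adamts12 were larger.

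Cluster 10 was compared with endomysial cells in 3 labels, with 37 cells in Cspg4dsRED, 8 in PdgfrbGFP and 17 in the pool. No member was called by edgeR among 7 tested, where 0.442% of 12455 genes were called. At an unadjusted p under 0.05 there were 3 members, and DESeq2 called the same 3, Adamts1, Adamts5 and Adamts15, against 8.07% of genes. The log2 fold changes by edgeR were 2.22 for Adamts1 (adjusted p = 0.31), -3.75 for Adamts5 (adjusted p = 0.34) and 3.96 for Adamts15 (adjusted p = 0.39). Adamts5 read 4.47 scaled counts in Cspg4dsRED, 1.81 in PdgfrbGFP and 41.6 in the pool in cluster 10, below the 67.8, 269 and 238 of the endomysial cells in every label. Adamts8, Adamts9 and Adamts16 were under the filter, with 0, 2 and 2 counts in cluster 10 against 219, 490 and 5189 in endomysial cells of the same labels.

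Within the endomysium, clusters 1, 6 and 8 were each compared with cluster 3, the most numerous. No member was called by edgeR in any of the 3 comparisons among 10 tested, where 2.54%, 1.03% and 1.42% of 15575 genes were called. At an unadjusted p under 0.05 there were 5, 2 and 2 members, and DESeq2 called 2, 0 and 0, against 7.96%, 4.47% and 5% of genes. In cluster 1, Adamts5 had a log2 fold change of 0.90 (paired difference 0.86 ± 0.18 SE, higher in 4 of 4 labels, adjusted p = 0.22 by edgeR). Adamts4 had -6.39 (13 counts against 1637, adjusted p = 0.0514 by edgeR) and Adamts16 had 6.70 (7085 counts against 141, adjusted p = 0.18 by edgeR), and DESeq2 called these 2. Leaving out Acta2GFP, whose 6 cells of cluster 1 held no Adamts16, edgeR called Adamts16. In cluster 6, Adamts2 (log2 fold change -0.74, adjusted p = 0.29 by edgeR) and Adamts5 (-0.78, adjusted p = 0.56) were lower in 3 of 3 labels. In cluster 8, Adamts5 (-1.06, adjusted p = 0.20 by edgeR) was lower and Adamts15 (1.57, adjusted p = 0.52) higher in 4 of 4 labels.

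**Figure D5:**
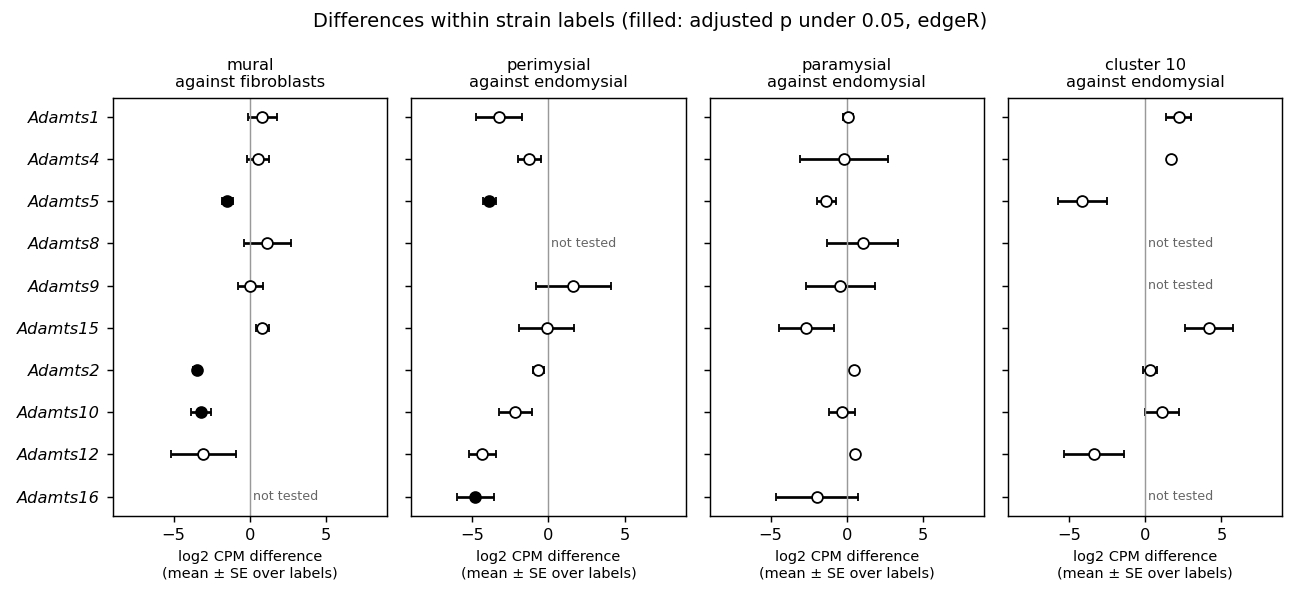
Differences in log2 CPM of the members within strain labels for the comparisons of mural, perimysial and paramysial cells and cluster 10, as the mean over labels with its standard error, with filled symbols for members called by edgeR and members under the filter marked as not tested. The called differences are Adamts2, Adamts5 and Adamts10 in mural cells and Adamts5 and Adamts16 in perimysial cells, all below 0.

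Soleus, a slow muscle, was compared with gastrocnemius, a mostly fast one, in endomysial cells of the PdgfrbGFP and pool labels. Only these labels name the muscle, in PdgfrbGFP for 202 of 494 endomysial cells, all on 1 plate. The muscles of the pool were on separate plates, with median depths of 291000 (gastrocnemius) and 478500 (soleus) counts in endomysial cells. Muscle and plate therefore cannot be told apart in the pool. EdgeR called 0 of 16337 genes (0%) and none of the 10 members, with 807 genes and 2 members, Adamts1 and Adamts8, at an unadjusted p under 0.05, while DESeq2 called 115 genes (0.704%) and 1 member, Adamts16. Adamts16 read 17.1 scaled counts in gastrocnemius and 0.0916 in soleus in PdgfrbGFP, and 16.6 and 5.60 in the pool. Cluster 1, the cluster with Adamts16, was unevenly found. In PdgfrbGFP, 16 of 112 gastrocnemius cells and 0 of 90 soleus cells were in cluster 1, while in the pool it was 32 of 194 and 21 of 108. Within cluster 1 of the pool, Adamts16 was 99.7 scaled counts in gastrocnemius (12 of 32 cells with a count) and 28.6 in soleus (5 of 21 cells). Adamts1 read 89.4 in gastrocnemius and 52.0 in soleus in PdgfrbGFP, and 65.7 and 37.8 in the pool (log2 fold change -0.80, adjusted p = 0.97 by edgeR).

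The remaining ADAMTS proteases were mostly scarce. Of the 9 others in the table, 4 were tested between mural cells and fibroblasts and 2 were lower, Adamts3 and Adamts6. Between perimysial and endomysial cells 5 were tested, of which Adamts3 was higher and Adamts14 lower. Adamts3 and Adamts14 are, with Adamts2, the procollagen N-propeptidases. Adamts3 read 34.0 ± 20.1 scaled counts in perimysial and 2.98 ± 1.44 in endomysial cells, and Adamts14 0.0913 ± 0.0767 and 8.94 ± 4.68 (SD, n = 5). The 2 were therefore called in opposite directions, while Adamts2 itself was not called.

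The ADAMTS-like proteins lack the protease domain and bind microfibrils. In mural cells 4 of 6 tested were lower and Adamtsl1 was higher, at 148 ± 73.3 scaled counts against 52.8 ± 25.6 in fibroblasts (log2 fold change 1.66, adjusted p = 0.0107 by edgeR, higher in 5 of 5 labels). In perimysial cells 2 of 6 were lower, Adamtsl2 (log2 fold change -5.14, adjusted p = 0.0168 by edgeR) and Adamtsl4. In cluster 1 against cluster 3, Adamtsl3, Adamtsl4 and Adamtsl5 were higher and Adamtsl2 lower, with 2.64 for Adamtsl4 (adjusted p = 0.000163 by edgeR) and -6.86 for Adamtsl2 (adjusted p = 0.000834 by edgeR).

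Among the proteoglycan substrates and the enzymes and binders of hyaluronan, 5 of 7 tested were lower in mural cells, including Has2, a hyaluronan synthase (0.116 ± 0.211 scaled counts against 4.28 ± 1.46). In perimysial cells 2 of 8 were higher and 2 lower. Versican (Vcan), a substrate of Adamts5, was 6.38 ± 4.41 scaled counts in perimysial and 83.9 ± 36.3 in endomysial cells (log2 fold change -3.90, adjusted p = 0.0134 by edgeR), lower in the class with less Adamts5. The hyaluronan synthase Has1 was also lower there (-5.35, adjusted p = 0.00687 by edgeR), and Hapln3, a link protein, was higher (7.94, adjusted p = 0.00701 by edgeR). In cluster 1 against cluster 3, Has1 was the 1 gene of this list called (3.19, adjusted p = 0.0309 by edgeR).

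The fibrillar procollagens split within the fibroblasts. In perimysial cells 4 of 7 tested were higher and 2 lower, among them Col2a1 (log2 fold change 9.08, adjusted p = 0.000187 by edgeR) and Col11a1 (8.02, adjusted p = 0.000961 by edgeR) on the higher side and Col3a1 and Col5a1 on the lower. Col11a1 is also 1 of the markers by which the study described perimysial cells. In paramysial cells Col5a2 was the 1 called (1.497, adjusted p = 0.0282 by edgeR), and in cluster 6 Col5a1 was lower (-1.02, adjusted p = 0.046 by edgeR). Of the other matrix proteins that family members cut or bind, 7 of 8 were lower in mural cells, among them the fibroblast marker Dcn. In perimysial cells 3 were higher and 1 lower. Fibromodulin (Fmod), a collagen-binding proteoglycan, was 7529 ± 3432 scaled counts in perimysial and 156 ± 74.7 in endomysial cells (5.72, adjusted p = 0.000177 by edgeR). Comp was higher in perimysial than in endomysial cells (3.70, adjusted p = 0.000474 by edgeR). Adamts12, the Comp-cutting member, went the other way there without a call (-4.20, adjusted p = 0.0763 by edgeR). Comp was also higher in cluster 6 (3.85, adjusted p = 0.00343 by edgeR) and cluster 8 (3.24, adjusted p = 0.00438 by edgeR) than in cluster 3. Fibronectin (Fn1) was higher in cluster 1 (1.49, adjusted p = 0.00627 by edgeR) and lower in cluster 6 (-2.36, adjusted p = 0.00256 by edgeR).

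Inhibitors and clearance receptors changed in both directions in mural cells, 2 of 6 higher and 3 lower. Timp3, the tissue inhibitor that acts on Adamts4 and Adamts5, was 1184 ± 612 scaled counts in mural cells and 559 ± 162 in fibroblasts (log2 fold change 1.09, adjusted p = 0.0299 by edgeR), and Timp4 was 112 ± 84.2 and 2.03 ± 1.13 (5.79, adjusted p = 0.000595 by edgeR). Timp1, Timp2 and Lrp1, the endocytic receptor that clears Adamts5, were the lower ones. Timp3 was lower in paramysial than in endomysial cells (-2.13, adjusted p = 0.0336 by edgeR). In cluster 10, A2m, the broad protease inhibitor alpha-2-macroglobulin, was 82.6 ± 16.7 scaled counts against 0.101 ± 0.092 in endomysial cells (11.08, adjusted p = 0.0145 by edgeR). That call and the cluster 10 call of Pcsk6 below ended without PdgfrbGFP, when edgeR called 0 of 12545 genes (803 at an unadjusted p under 0.05). Of the convertases and glycosylation enzymes that ready the family for secretion, Pcsk5 and Pcsk6 were lower in mural cells, and Pcsk6 was also lower in cluster 10 (-7.18, adjusted p = 0.035 by edgeR), cluster 6 (-3.11, adjusted p = 0.00927 by edgeR) and cluster 8 (-2.94, adjusted p = 0.00455 by edgeR).

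Of the 77 calls on other family members, substrates and regulators, 41 were kept whichever label was left out. They were 24 of 33 in mural cells, 13 of 20 in perimysial cells, 1 of 3 in paramysial cells (Postn), 3 of 9 in cluster 1 (Fn1, Adamtsl2 and Adamtsl4) and 0 of 12 in clusters 6, 8 and 10. Postn is itself a marker by which the study described paramysial cells, so its call follows from the naming of that cluster. In perimysial cells, the calls of Adamts3 and Adamts14 ended without C57BL6, PdgfrbGFP or the pool, that of Vcan without C57BL6 or the pool, that of Adamtsl2 without Acta2GFP, C57BL6 or the pool, and that of Adamtsl4 without Acta2GFP, PdgfrbGFP or the pool. In mural cells, those of Adamtsl1 and Adamts3 ended without PdgfrbGFP, that of Timp3 without C57BL6, PdgfrbGFP or the pool, and that of Adamts6 without Cspg4dsRED, PdgfrbGFP or the pool. In cluster 1, those of Has1 (without C57BL6, PdgfrbGFP or the pool), Adamtsl3 and Adamtsl5 (each without Acta2GFP, PdgfrbGFP or the pool) ended. In paramysial cells, that of Col5a2 ended without C57BL6 or the pool and that of Timp3 without PdgfrbGFP or the pool. For cluster 6, the calls ended without C57BL6 or the pool for Comp, without the pool for Fn1, without C57BL6 or PdgfrbGFP for Pcsk6 and without C57BL6, PdgfrbGFP or the pool for Col5a1. For cluster 8, they ended without PdgfrbGFP or the pool for Comp and without PdgfrbGFP for Pcsk6.

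The genes whose pattern was most like that of each member were taken by Pearson's r of log2 CPM, which sets every library to one total, over 40 sums of cells by cluster and strain label, among 10270 other genes, and the sums share labels, plates and depth. For Adamts2 they were Mgst1 (r = 0.88), Steap3 (0.87) and Tgfbi (0.87), for Adamts5 Cadm3 (0.78), Lgi2 (0.76) and Carhsp1 (0.75), and for Adamts10 Frmd6 (0.78), Abca9 (0.77) and Armcx3 (0.77). Adamts16 had the weakest leading gene, Srgap1 (0.62). Between members the highest r was 0.52, for Adamts5 and Adamts12. The neighbours on chromosome 16, Adamts1 and Adamts5, had 0.29, and those on chromosome 9, Adamts8 and Adamts15, had 0.13, so the genes that lie beside each other were not the ones with the most similar levels.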

How the data were processed

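Single cells from mouse skeletal muscle were measured by Smart-seq2, 1 library a cell. The authors demultiplexed with bcl2fastq, trimmed reads, aligned them with TopHat2 and Bowtie to GRCm38 (mm10) with spike-in sequences, and counted with featureCounts; the deposited values are raw counts per gene. The annotation release and the use of strand are not given in the sources used here, and a protocol label names heart where the tissue label names skeletal muscle. The authors removed cells of low count and of few or very many genes, and clustered with pagoda2. Of 1754 columns, 1 matched no label and was not used. Identifiers were matched to GENCODE M21 (46005 of 46517).

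Each cell was scaled to 500000 counts for levels. Raw counts were summed by class and strain label (3 or more cells) and tested over all genes with edgeR 4.0.16 in R 4.3.3 (quasi-likelihood, TMM, filterByExpr by group, label as block, Benjamini-Hochberg). The expression filter by group was chosen after results were seen. Labels pair the sums because both classes come from the same mice or line, and same-label deviations correlated at 0.094 to 0.266 for mural, 0.139 to 0.347 for perimysial, 0.0592 to 0.118 for paramysial and 0.134 to 0.222 for cluster 10 sums. Alternatives were RLE scaling, no filter, DESeq2 1.42.0, no block, plates as units, equal weight of cells, each label left out, and the removal of 74 cells without Pdgfra and Pdgfrb counts and of 2 with over 10% mitochondrial counts. The code was tested on simulated data. The members, gene lists and tests were chosen with earlier results of these data known. All 10 members are named; from the lists of other family members, substrates and regulators, up to 4 called genes per direction and comparison with the largest change were eligible, and Adamts3, Adamts6, Timp1, Timp2, Lrp1, Pcsk5, Col3a1, Col5a1, Comp, Adamtsl4 and Adamtsl5 were, where outside that rule, chosen after their values were seen. The 3 genes most like a member were taken among genes averaging 10 or more CPM. No cells held identical values. Intervals and floors cover counting error only.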

Additional observations from a re-analysis of the deposited data

Results flagged for a closer look

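Each level of a member was examined in each class for 1 strain label far from the others, by the gap to the nearest label relative to the whole range (Dixon's 95% critical value). Of 50 groups of 4 or 5 labels, 11 exceeded it. The critical value gives about 5% for independent groups of normally distributed values. The groups here share cells, and many levels lie near 0 or rest on few cells. The count of 11 therefore cannot be set against chance. Adamts5 was lowest in the endomysial cells of Cspg4dsRED (67.8 scaled counts, next 238) and highest in the perimysial cells of C57BL6 (34.2, next 15.3). Adamts8 was highest in Acta2GFP in endomysial cells (5.70, next 0.955), paramysial cells (77.3, next 10.3) and all fibroblasts (8.23, next 2.27), and in PdgfrbGFP in perimysial cells (11.3, next 0.744). Adamts9 was highest in Cspg4dsRED in endomysial cells (8.04, next 1.74) and in C57BL6 in mural cells (14.2, next 2.75). Adamts12 stood out in the mural cells of the pool (18.0, next 3.08). Adamts16 stood out in the paramysial cells of C57BL6 (67.3, next 7.25) and, at a very low level, in the mural cells of the pool (0.491, next 0.136).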

How the results depend on the processing

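Adamts2 in mural cells and Adamts5 in perimysial cells were called in all 13 alternatives run for each. Adamts5 and Adamts10 in mural cells were called in 8 and 10 of 13, and Adamts16 in perimysial cells in 9 of 12. Of 75 pairs of a member and a comparison, the 24 with an unadjusted p under 0.05 or a call in some alternative kept their direction. Of the other 51 pairs, 19 changed direction in some alternative. Members called in mural cells (3) were 1 without the cells lacking Pdgfra and Pdgfrb or high in mitochondrial counts, and 1 to 4 with a label left out. In perimysial cells (2) they were 5 by DESeq2, 4 with plates as units and 1 to 3 with a label left out. In cluster 10 (0) they were 3 by DESeq2, 3 without a filter and 0 to 1 with a label left out. In cluster 1 against cluster 3 (0) they were 2 by DESeq2, 1 by RLE scaling, 1 without the replicate block, 3 with plates as units, 1 with cells weighted alike and 0 to 1 with a label left out. With plates as units, 1 was called in cluster 8 against cluster 3, and DESeq2 called 1 in soleus against gastrocnemius, where leaving out a label was not run since 1 sample a muscle would remain. Without the block, Adamts10 in mural cells lost its call (adjusted p = 0.0753) and Adamts4 in cluster 1 gained one (0.0455); it changed no other call of a member.

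Counts over all genes moved more. DESeq2 called 4336 genes for mural cells against 2140 by edgeR, 2068 against 787 for perimysial, 787 against 14 for paramysial, 1005 against 55 for cluster 10, and 1239, 696 and 778 against 396, 161 and 221 for clusters 1, 6 and 8. Leaving out a label gave 1230 to 2257 (mural), 395 to 1416 (perimysial), 10 to 64 (paramysial), 0 to 216 (cluster 10), and 92 to 397, 8 to 191 and 33 to 219 (clusters 1, 6 and 8). RLE scaling moved the median log2 fold change of all genes in cluster 10 from -0.41 to -0.27.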
